A study of Bos taurus with 8 samples.

Results

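The kinases of the mitogen-activated protein (MAP) kinase cascade were examined in bovine whole blood after contact with phenolics extracted from cowpea leaf (CPE) and in untreated blood (CONTROL). Members were the genes whose symbol in the deposited averages table begins with MAPK, MAP2K, MAP3K or MAP4K and a number, or with MAPKAP. This rule found 45 of 16966 named genes and 113 of 43653 probes. It took in 13 MAP kinases, 7 MAP2 kinases, 13 MAP3 kinases, 4 MAP4 kinases, 3 MAPK-activated protein kinases and 5 proteins that are no kinases of the cascade. Those 5 are MAPK1IP1L, MAPK8IP1, MAPK8IP2, MAPK8IP3 and MAPKAP1.

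The CPE group was blood held with 10 µg/ml extract for 30 min at 37 °C under 5% CO2, and the CONTROL group was blood held in the same way with nothing added. Blood in both groups came from 5 female Holstein Friesian cows that had received a probiotic for 60 days, so every sample carries that treatment. Ages, and the cows behind each array, are not stated in the labels. Each group was read on 4 single-colour arrays, hybridised with RNA pooled within the group per the series text. The 4 arrays of a group may therefore be technical replicates, and every p describes the spread between arrays and not between cows.

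In a MAP kinase cascade, a MAP3 kinase phosphorylates a MAP2 kinase, which in turn phosphorylates a MAP kinase, and some MAP4 kinases act above the MAP3 tier. The ERK, JNK, p38 and ERK5 branches carry signals from Toll-like, cytokine and antigen receptors in blood leukocytes to cytokine production, migration and survival. Activity in the cascade is set largely by phosphorylation, which an array of transcript levels does not measure. The roles given for single genes are those known for the human and mouse proteins.

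CPE arrays shared 1 slide and CONTROL arrays the other, and the 2 slides were scanned months apart, so batch and group cannot be told apart. Large areas of every array were dim. Results therefore rest on spots in bright surroundings on all 8 arrays, called the lit area, which held 13028 of 43803 spots (29.7%). Levels are log2 processed signal minus the 75th percentile of the lit spots of that array, and a change is CPE minus CONTROL on that scale. This percentile was 399 to 748 intensity units in CPE arrays and 581 to 759 in CONTROL arrays. CPE array 3 lay lowest in its group at 399, and CONTROL array 4 lowest in its own at 581. Correlations of levels over 7117 probes were 0.970 to 0.998 among CPE arrays, 0.985 to 0.997 among CONTROL arrays and 0.919 to 0.971 between the groups. Levels of different probes are not compared, since signal depends on the probe.

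Most of the cascade could not be read reliably. Of the 113 member probes, 29 lay in the lit area and 50 lay in dark surroundings on all 8 arrays. In the lit area, 18 probes of 14 genes exceeded background clearly on all 8 arrays, by the scanner software's call, and were tested. They covered 6 of 13 MAP kinases, 1 of 7 MAP2 kinases, 5 of 13 MAP3 kinases, 1 of 4 MAP4 kinases, none of the 3 MAPK-activated protein kinases, and MAPKAP1. Anywhere on the array, 29 probes of 23 genes reached that level on all 8 arrays, and 28 probes on no array. No probe of MAP3K15, MAPK4, MAPK10 or MAPK8IP3 was well above background on any array. MAP3K3, MAP3K4, MAP3K6, MAP3K12, MAP3K14, MAPK6, MAPK12, MAPK8IP2 and MAPKAPK5 had no lit probe and none above background on all 8 arrays, and no value is given for them. The plot of probes by tier shows this coverage.

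**Figure D1:**
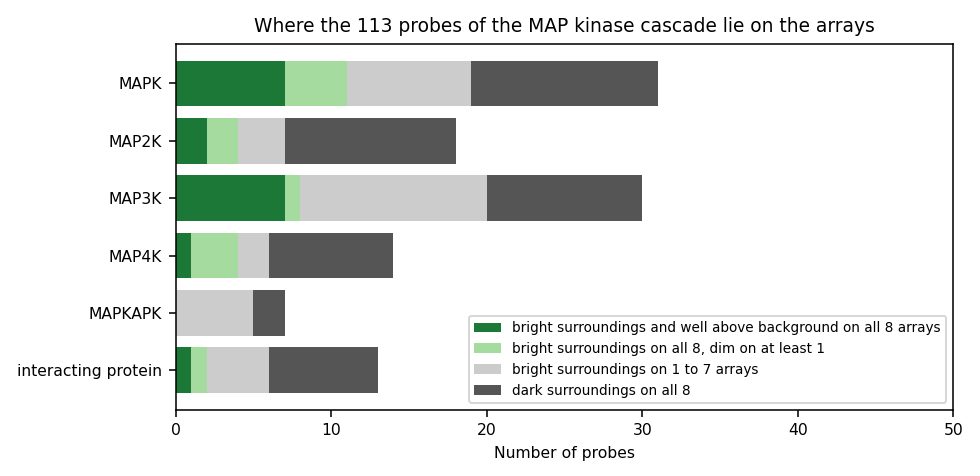
Number of member probes (horizontal axis) in each tier of the cascade, coloured by how many of the 8 arrays had bright surroundings and a signal well above background. Only 18 of 113 probes met both conditions on all 8 arrays, and 50 lay in dark surroundings on all 8.

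Both directions occurred among the measured kinases. MAP2K6, which activates p38 kinases, was higher in CPE at both of its tested probes, by 1.45-fold and 1.36-fold. MAPK7 (ERK5) was 1.49-fold higher. The sign at both genes turned when the whole array set the scale, as given below. MAPK13, MAPK15, MAP3K1, MAP3K11, MAP4K2 and 1 probe of MAP3K13 were lower by 1.31-fold to 1.51-fold. In all, 9 of 18 tested probes passed the test, 3 higher and 6 lower. The test was limma's moderated linear model, with Benjamini-Hochberg adjustment over all 7197 probes tested in the lit area and a threshold of 0.05.

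This share of 50% stood beside 48.3% called among all tested probes, of which 22.8% were higher and 25.5% lower in CPE. The members' share was thus near that of all probes tested in the lit area. Their median change was −0.25, against −0.0046 over all tested probes, and their median size of change was 0.46, against 0.34. CPE and CONTROL arrays did not overlap at 11 of 18 member probes (50.2% of all tested probes did not overlap). With 1 probe per gene, 7 of 14 genes passed, 2 higher and 5 lower. With normexp background correction 3 member probes passed, namely A_73_103707 of MAP2K6, MAP3K11 and MAPKAP1. Without scaling between arrays only MAPK15 passed, and 9 probes did so when CPE array 3 was left out as well. In the whole lit area, 271 probes without scaling were higher and 913 lower, against 1643 and 1834 with the scaling used. After local centring, 3182 were higher and 1996 lower, and of the member probes 6 were higher and 4 lower. Local centring subtracts, on each array, the median deviation of the 61 closest lit spots, dim ones included.

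Neighbouring spots moved with the members in part. For each tested probe, the median change of the probes around it was taken, from 24 to 41 probes. Only neighbours well above background on all 8 arrays were used, so these medians need not match the shift that local centring subtracts. Across the 18 member probes, own change and that of the surroundings had a Pearson correlation of 0.73 and a Spearman correlation of 0.63. The same correlations over all 7197 probes were 0.38 and 0.36. These points share the same 8 arrays, so the values are a description. Of the 9 called probes, 7 had the sign of their surroundings, and the surroundings are given below beside each change; their part in the changes was not tested.

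**Figure D2:**
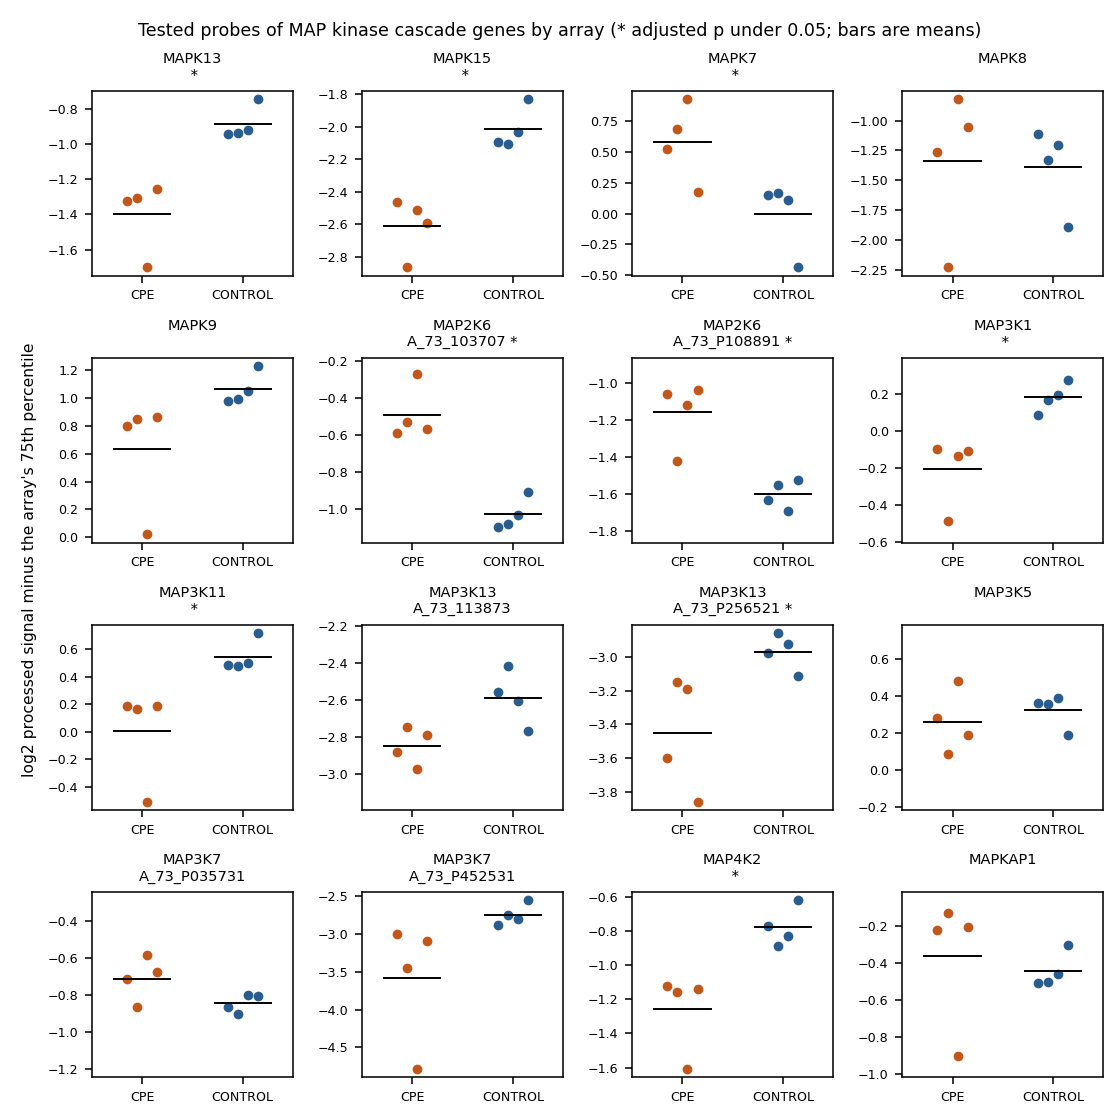
Level of each tested member probe named in the text on each array (vertical axis, log2 processed signal minus the 75th percentile of the array), CPE arrays left and CONTROL arrays right, with group means as bars. Titles with an asterisk mark the 9 probes past the threshold, and at each of them CPE and CONTROL arrays do not overlap.

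Among the MAP4 kinases, which sit at the head of the relay, 1 of 4 genes was tested. MAP4K2 (NM_001206275) acts towards JNK and p38. Its levels were −1.12, −1.15, −1.61 and −1.14 in CPE arrays, against −0.77, −0.89, −0.83 and −0.62 in CONTROL arrays. All 4 CPE arrays lay below all 4 CONTROL arrays, and CPE array 3 lay lowest. The change was −0.48 (SE 0.13, adjusted p = 0.0129), or 1.39-fold lower in CPE. It passed in all 8 fits that left out 1 array. The surrounding probes had a median change of −0.23, and after local centring MAP4K2 changed by −0.091 (adjusted p = 0.183).

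MAP4K1 (NM_001075825), or HPK1, restrains antigen receptor signalling in lymphocytes. Probe A_73_P030936 was lit on 3 arrays of each group and was read on those alone, a setting chosen after seeing the data. Its levels were 2.70, 2.56 and 2.73 in CPE arrays 1, 3 and 4, against 2.44, 2.08 and 2.64 in CONTROL arrays 1 to 3. The groups overlapped, and the change was 0.27 (SE 0.16, adjusted p = 0.209), with surroundings at 0.55.

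MAP4K3, or GLK, acts downstream of the T cell receptor. Its probe A_73_P443226 lay in the lit area but was well above background on only 2 CPE arrays, against 4 CONTROL arrays. The levels were −4.07, −4.71, −4.49 and −4.32 in CPE, against −2.11, −2.32, −2.24 and −1.96 in CONTROL. Every CPE level lay below every CONTROL level, but on the other CPE arrays the signal was not well above background, so no fold is given. MAP4K5 (probe A_73_P386301) was well above background on 4 CPE arrays and 1 CONTROL array. Its mean level was −4.21 in CPE, against −3.90 in CONTROL. MAP4K1 had another lit probe, A_73_P320876, well above background on 4 CPE arrays and 3 CONTROL arrays. The mean level there was −3.94 in CPE, against −3.52 in CONTROL. Such counts give no direction, since the lowest lit level called well above background differed by array. It was −6.29 to −4.28 on CPE arrays, against −4.16 to −3.67 on CONTROL arrays.

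MAP3 kinases receive stress, cytokine and Toll-like receptor signals. Of 7 tested probes of 5 genes, 3 were lower in CPE and 0 higher, while 5 had an unadjusted p under 0.05 (55.7% of all tested probes had one). MAP3K1 (NM_001205906), or MEKK1, activates the JNK branch. Its levels were −0.10, −0.49, −0.14 and −0.11 in CPE arrays, against 0.086, 0.17, 0.20 and 0.28 in CONTROL arrays. Every CPE array was below 0 and every CONTROL array above it. The change was −0.39 (SE 0.11, adjusted p = 0.0146), or 1.31-fold lower, and it passed in all 8 fits without 1 array. Surroundings were at −0.20, and after local centring the change was −0.14 (adjusted p = 0.191).

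MAP3K11 (NM_001101991), or MLK3, is a mixed-lineage kinase that also feeds JNK. Levels of 0.19, 0.17, −0.51 and 0.19 in CPE arrays stood against 0.49, 0.48, 0.50 and 0.71 in CONTROL arrays. CPE array 3 lay far below the other CPE arrays. The change was −0.54 (SE 0.16, adjusted p = 0.0238), or 1.45-fold lower, with surroundings at −0.26. After local centring it was −0.16 (adjusted p = 0.00924). Without CONTROL array 4 it was −0.48 and missed the threshold (adjusted p = 0.0606).

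MAP3K13 (NM_001101853), or LZK, had a pair of tested probes that overlap by 40 bases, so they are not independent readings of the transcript. Both 60-base probes are shown, 5′ to 3′, with the shared run in capitals, because they lie on nearly the same stretch and gave calls on either side of the threshold.
MAP3K13 A_73_113873: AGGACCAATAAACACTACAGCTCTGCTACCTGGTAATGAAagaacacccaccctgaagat
MAP3K13 A_73_P256521: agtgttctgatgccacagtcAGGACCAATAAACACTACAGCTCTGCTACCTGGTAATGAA
At A_73_P256521 the levels were −3.60, −3.15, −3.19 and −3.86 in CPE, against −2.98, −2.86, −2.92 and −3.11 in CONTROL. The groups did not overlap, and the change was −0.48 (SE 0.16, adjusted p = 0.0355; surroundings −0.0083). It passed in 3 of 8 fits without 1 array. Without CPE array 1 the change was −0.43, and without CPE array 4 it was −0.34. Without CONTROL array 1, 2 or 3 it was −0.48, −0.44 and −0.46, and none of these 5 fits reached the threshold (adjusted p 0.0712 to 0.0883).
At A_73_113873 the levels were −2.88, −2.75, −2.97 and −2.79 in CPE, against −2.56, −2.41, −2.60 and −2.77 in CONTROL. These overlapped, and the change was −0.26 (SE 0.097, adjusted p = 0.0519). Without CPE array 2 it was −0.30 (adjusted p = 0.0465), and without CONTROL array 4 it was −0.32 (adjusted p = 0.0213). With normexp background correction both probes were at about no change, 0.016 and 0.0093.

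MAP3K7 (NM_001081595), or TAK1, carries Toll-like and interleukin receptor signals to NF-kB, JNK and p38. Its tested probes share no run longer than 4 bases, and they are shown because they read different stretches and differed in sign. The first is given by its first 30 bases.
MAP3K7 A_73_P035731: caagcccatcctagaatgcctttcaacact
MAP3K7 A_73_P452531: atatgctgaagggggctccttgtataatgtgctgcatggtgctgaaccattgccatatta
At A_73_P035731 the change was 0.13 (95% interval −0.057 to 0.32, adjusted p = 0.216), and after local centring it was 0.20 (adjusted p = 0.0149). At A_73_P452531 the levels were −3.01, −3.45, −4.78 and −3.10 in CPE, against −2.89, −2.76, −2.81 and −2.56 in CONTROL. CPE array 3 lay far below the rest, and the change was −0.83 (SE 0.35, adjusted p = 0.0781; surroundings −0.54). Without CPE array 3 it was −0.43 (adjusted p = 0.0192), and with the replicate number as a block the adjusted p was 0.0478. After local centring it was −0.18 (adjusted p = 0.132).

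MAP3K5 (NM_001144081), or ASK1, is a kinase of the oxidative stress response. Levels were 0.28, 0.086, 0.49 and 0.19 in CPE arrays, against 0.37, 0.36, 0.39 and 0.19 in CONTROL arrays. The groups overlapped, with a change of −0.065 (95% interval −0.30 to 0.17, adjusted p = 0.623).

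MAP3K8 (NM_001099071), or TPL2, links Toll-like and tumour necrosis factor receptors to the ERK branch in myeloid cells. Its probe was lit on 4 CPE arrays and 3 CONTROL arrays, and its first 30 of 60 bases were as follows.
MAP3K8 A_73_P046006: ctgtgttaaaccacataatgtctgtacatc
Read only where lit, a setting chosen after seeing the data, the levels were 0.90, 1.37, 1.12 and 0.85 in CPE arrays. They stood against 2.18, 2.16 and 2.09 in CONTROL arrays 1 to 3. Group means were 1.06 ± 0.24 in CPE (SD, n = 4) and 2.14 ± 0.048 in CONTROL (SD, n = 3). CONTROL array 4, on which the spot lay in dark surroundings, read 0.60 and was left out. The change was −1.08 (SE 0.14, adjusted p = 0.000811 in limma over 8615 probes read where lit), or 2.12-fold lower in CPE. In that setting 46.1% of probes were called and 21.7% were lower in CPE. The surroundings moved the other way, by 0.46 over 28 probes. It passed in all 7 fits that left out 1 of the 7 arrays read (−1.19 to −1.01), without scaling (−1.34, adjusted p = 0.00394) and with normexp (−1.02, adjusted p = 0.00539).

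MAP2 kinases phosphorylate MAP kinases on both threonine and tyrosine. Only MAP2K6 (NM_001034045) of the 7 could be tested. Its tested probes share no run longer than 6 bases, and their first 30 of 60 bases are shown because both gave the same direction from different stretches.
MAP2K6 A_73_103707: tttttcccctccaaagggggccttggaatc
MAP2K6 A_73_P108891: ttcttggagactaaaaacaatggactccat
At A_73_103707 the levels were −0.59, −0.53, −0.27 and −0.57 in CPE arrays, against −1.10, −1.08, −1.03 and −0.91 in CONTROL arrays. Means were −0.49 ± 0.15 in CPE arrays, against −1.03 ± 0.086 in CONTROL arrays (SD, n = 4 each). All CPE arrays were above all CONTROL arrays, with a change of 0.54 (SE 0.095, adjusted p = 0.00189; surroundings −0.075).
At A_73_P108891 the levels were −1.06, −1.42, −1.12 and −1.03 in CPE, against −1.63, −1.55, −1.69 and −1.52 in CONTROL. Again no arrays overlapped, and the change was 0.44 (SE 0.10, adjusted p = 0.00747; surroundings 0.039). Both probes passed in all 8 fits without 1 array. Both missed the threshold without scaling, at 0.37 and 0.27, and over the whole array both turned to −0.58 and −0.68. The authors' deposited table likewise gives group averages that differ by −0.58 and −0.68. On that whole-array scale the median change of all probes was −1.05, and relative to it the MAP2K6 probes lay at 0.47 and 0.37.

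MAP2K4 and MAP2K7, the activators of JNK, each had a lit probe that was well above background on 2 CPE arrays, against 0 and 1 CONTROL arrays. Too few arrays measured them for a change to be given. Their mean levels were −4.87 and −4.92 in CPE, against −4.68 and −4.06 in CONTROL, so the counts give no direction. MAP2K1, MAP2K2, MAP2K3 and MAP2K5 had no probe in the lit area and none well above background on all 8 arrays, so the direct activators of ERK were not measured reliably.

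Of the MAP kinases themselves, 3 of 7 tested probes passed, 1 higher and 2 lower. MAPK15 (NM_001046110), or ERK8, is an atypical member with roles in autophagy and cilia. Its levels were −2.47, −2.87, −2.52 and −2.59 in CPE arrays, against −2.09, −2.11, −2.03 and −1.83 in CONTROL arrays. The groups did not overlap, and means were −2.61 ± 0.18 in CPE arrays, against −2.02 ± 0.13 in CONTROL arrays (SD, n = 4 each). The change was −0.59 (SE 0.11, adjusted p = 0.00253), or 1.51-fold lower, while the surroundings were at 0.080. It passed in all 8 fits without 1 array, without scaling (−0.77) and after local centring (−0.56), and missed the threshold with normexp (−0.22, adjusted p = 0.545).

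MAPK13 (NM_001014947), or p38 delta, is a p38 kinase of epithelia and myeloid cells. Its levels were −1.32, −1.30, −1.70 and −1.26 in CPE, against −0.94, −0.94, −0.92 and −0.75 in CONTROL. All CPE arrays were below all CONTROL arrays, with CPE array 3 lowest and CONTROL array 4 highest. The change was −0.51 (SE 0.11, adjusted p = 0.00588), or 1.42-fold lower, and it passed in all 8 fits without 1 array. Surroundings were at −0.30, and with normexp the change was −0.20 (adjusted p = 0.208). After local centring it was −0.16 (adjusted p = 0.0233).

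MAPK7 (NM_001099080), or ERK5, responds to growth factors and to stress. CPE arrays had levels of 0.52, 0.69, 0.93 and 0.17, against 0.15, 0.17, 0.11 and −0.44 in CONTROL arrays. CPE array 4 lay almost level with the highest CONTROL arrays. The change was 0.58 (SE 0.19, adjusted p = 0.0324; surroundings 0.26), and it turned to −0.54 over the whole array, against the median of −1.05 there. It passed in only 3 of 8 fits without 1 array. It missed the threshold without CPE array 1, 2 or 3, at 0.60, 0.54 and 0.46, and without CONTROL array 3 or 4, at 0.62 and 0.43.

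The JNK genes did not pass. MAPK9 (NM_001046369), or JNK2, had levels of 0.80, 0.85, 0.020 and 0.87 in CPE, against 0.98, 0.99, 1.05 and 1.23 in CONTROL. The groups did not overlap, yet CPE array 3 widened the spread, and the change was −0.43 (SE 0.19, adjusted p = 0.0888; surroundings −0.23). Without CPE array 3 it was −0.22 (adjusted p = 0.0399), and after local centring it was −0.010 (adjusted p = 0.909).
MAPK8 (NM_001192974), or JNK1, had levels of −1.26, −2.23, −0.82 and −1.05 in CPE, against −1.11, −1.33, −1.21 and −1.89 in CONTROL. Its change was 0.044 (95% interval −0.64 to 0.73, adjusted p = 0.914), an interval too wide to show a difference of the size seen at MAPK15. MAPK11 (p38 beta), MAPK14 (p38 alpha) and MAPK4 had lit probes that were well above background on 3, 1 and 0 CPE arrays, against 0 CONTROL arrays each. Mean levels were −4.66, −5.14 and −6.48 in CPE, against −5.78, −4.67 and −6.24 in CONTROL. The counts are no measure of direction.

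MAPKAP1 (NM_001081603), or SIN1, is a subunit of the mTORC2 complex that the symbol rule took in. Its levels were −0.22, −0.13, −0.90 and −0.21 in CPE, against −0.51, −0.51, −0.46 and −0.30 in CONTROL. CPE arrays other than CPE array 3 were above every CONTROL array. The change was 0.078 (SE 0.17, adjusted p = 0.722; surroundings −0.25), and without CPE array 3 it was 0.26 (adjusted p = 0.0177). After local centring it was 0.39 (adjusted p = 0.000495).

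**Figure D3:**
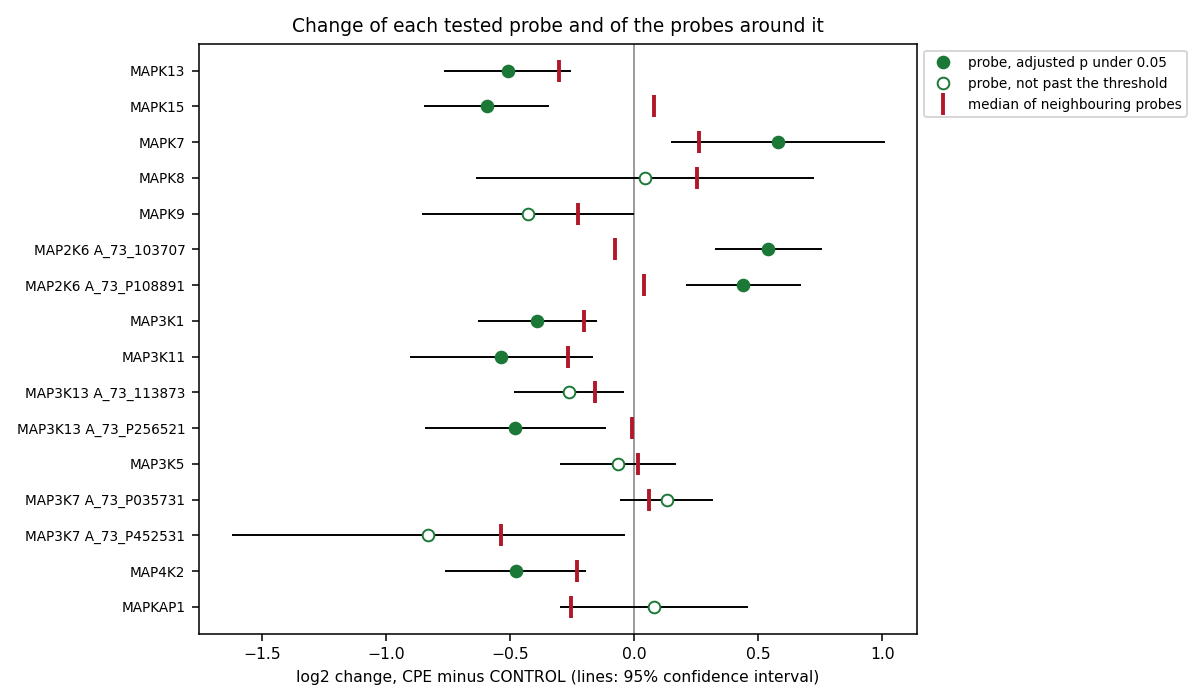
Change of each tested member probe named in the text (horizontal axis, log2, CPE minus CONTROL) with its 95% confidence interval, and the median change of the probes around it as a red tick. Filled points are the 9 probes past the threshold, and among them both MAP2K6 probes, MAPK15 and MAP3K13 A_73_P256521 lie farthest from their ticks.

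Over the whole array, without regard to surroundings, 29 member probes of 23 genes could be fitted. Of these, 14 were lower in CPE and 0 higher, and 18 had an unadjusted p under 0.05 (54.2% of all probes fitted had one). Across all 9643 probes of that limma fit, 38.3% were called, 36.1% lower and 2.13% higher. The median change of all probes was −1.05, so these values shift with the scaling. Levels from this fit, also those of MAPK14 and MAPKAPK3 below, are log2 processed signal minus the 75th percentile of all spots of that array. That percentile was 134 to 280 in CPE arrays and 53.1 to 149 in CONTROL arrays, so these levels are not on the lit-area scale. The count of 14 called probes became 9 when arrays were scaled to bright probes, 3 higher and 6 lower. Without scaling it was 1, and that probe was higher in CPE. The count was 5 without CPE array 2, and 5, 7 and 4 without CONTROL arrays 2, 3 and 4, all of them lower. Among the 11 probes of 9 genes outside the lit-area fit, 4 were lower. The scaffold MAPK8IP1 (JIP1), which binds JNK, had levels of −2.80, −0.20, −0.91 and −0.95 in CPE, against 1.26, 1.23, 0.43 and 2.30 in CONTROL. The groups did not overlap (change −2.52, adjusted p = 0.000719), and relative to the median of all probes the change was −1.47. Its spot lay in dark surroundings on all 8 arrays, and the lit MAPK8IP1 probe was well above background on none.

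MAPK14, the main p38 kinase of leukocytes, averaged 0.997 ± 0.49 in CPE arrays, against 2.25 ± 0.43 in CONTROL arrays (SD, n = 4 each). Its change of −1.26 (adjusted p = 0.0420) was −0.20 relative to the median of all probes, and its spot lay in dark surroundings on all 8 arrays. MAP3K8 and probe A_73_120482 of MAP4K1 were the other called probes, at −1.82 and −1.88, or −0.77 and −0.83 relative to that median. The MAP4K1 spot also lay in dark surroundings on all 8 arrays, and its CPE and CONTROL levels overlapped. MAPK3, or ERK1, gave 0.65 (adjusted p = 0.247) at A_73_108422 and −0.71 (adjusted p = 0.296) at A_73_P413591, in dark surroundings on all arrays. Relative to the median of all probes the MAPK3 changes were 1.71 and 0.34. MAPKAPK2, the p38 effector that stabilises cytokine transcripts, changed by 0.047 (adjusted p = 0.934), or 1.102 relative to that median. The MAPKAPK2 spot was lit on 2 CPE arrays and 0 CONTROL arrays. MAPKAPK3 had 2.77 ± 0.29 in CPE arrays, against 1.65 ± 0.29 in CONTROL arrays (SD, n = 4 each), with no overlap. Its change was 1.11 (adjusted p = 0.0612), or 2.17 relative to that median. Its spot was lit on all 4 CPE arrays and on 0 CONTROL arrays. MAPK1IP1L, lit on 4 CPE arrays and 1 CONTROL array, changed by −1.08 (adjusted p = 0.0704), and MAP3K9 by −0.53 (adjusted p = 0.394). Relative to that median these were −0.031 and 0.52, and the MAP3K9 spot was lit on 0 CPE arrays and 2 CONTROL arrays.

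Other genes of the pathway were read from lists of 85 partners by name, 77 of them with a probe. In the lit area, 40 probes of 31 partner genes were tested, and 18 (45%) passed, 8 higher and 10 lower. Their median change was −0.048. This share also lay near the 48.3% of all tested probes.

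Upstream adaptors and GTPases had 2 higher and 1 lower of 6 probes. RAC1, a GTPase that activates the JNK and p38 branches, changed by 0.38 (adjusted p = 0.00483), and the adaptor SHC1 by 0.41 (adjusted p = 0.0490). Their surroundings were at 0.13 and 0.24. TAOK2, a kinase of the MAP3 tier named outside the MAP scheme, was the 1 lower of 6 probes in its list. It changed by −0.87 (adjusted p = 6.33e-05), with surroundings at −0.10.

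Scaffolds and regulators had 3 higher and 2 lower of 10 probes, and probes of PEBP1, ARRB2 and LAMTOR3 differed within the gene. PEBP1, an inhibitor of RAF kinases, was 0.77 at 1 probe (adjusted p = 7.86e-05) and 0.080 and −0.051 at the others. ARRB2, a beta-arrestin, was −1.09 at 1 probe (adjusted p = 0.000288) and −0.37 at the other. ARRB1 changed by 0.76 (adjusted p = 0.00280). LAMTOR3, which tethers ERK signalling to late endosomes, was higher at 1 probe (0.53, adjusted p = 0.0121) and lower at the other (−0.51, adjusted p = 0.0416). The surroundings of those LAMTOR3 probes were at 0.24 and −0.28. For ARRB1 and the called probes of PEBP1 and ARRB2 they were at 0.17, −0.0045 and −0.20. Kinases downstream of MAP kinases had 1 higher of 5 probes, MKNK2 (0.28, adjusted p = 0.0150), and 1 lower, RPS6KA4 (−0.41, adjusted p = 0.00364). Surroundings of MKNK2 and RPS6KA4 were at 0.17 and 0.067.

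The partner with the largest change was the early gene FOS. FOS, a transcription factor induced by ERK signalling, had levels of −0.40, −0.47, −0.20 and −0.36 in CPE, against 2.26, 2.25, 2.29 and 2.30 in CONTROL. Its change was −2.64 (SE 0.080, adjusted p = 1.11e-06), or 6.22-fold lower. DUSP1, a phosphatase that switches off p38 and JNK, had levels of 1.28, 1.23, 1.52 and 1.34 in CPE, against 3.34, 3.32, 3.28 and 3.49 in CONTROL. Its change was −2.01 (SE 0.091, adjusted p = 2.99e-06), or 4.04-fold lower. The arrays within each group lay close together for both genes, and their surroundings were at −0.13 and −0.087.

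Transcription factors and early genes had 1 higher and 4 lower of 8 probes. Besides FOS, ETS2 changed by −1.02 at 1 of its probes (adjusted p = 0.0276) and MEF2A, a p38 target, by −0.999 (adjusted p = 0.000110). Surroundings were at −0.55 for that ETS2 probe and −0.075 for MEF2A. FOSB, a partner of JUN proteins, went the other way (0.67, adjusted p = 0.00158), with surroundings at −0.096. The list of phosphatases held, besides DUSP1, PTPN7 as its 1 higher probe of 5 (0.59, adjusted p = 0.0251), with 0.25 at its second probe. The surroundings of these PTPN7 probes were at 0.62 and 0.36, so neither changed by more than its surroundings.

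**Figure D4:**
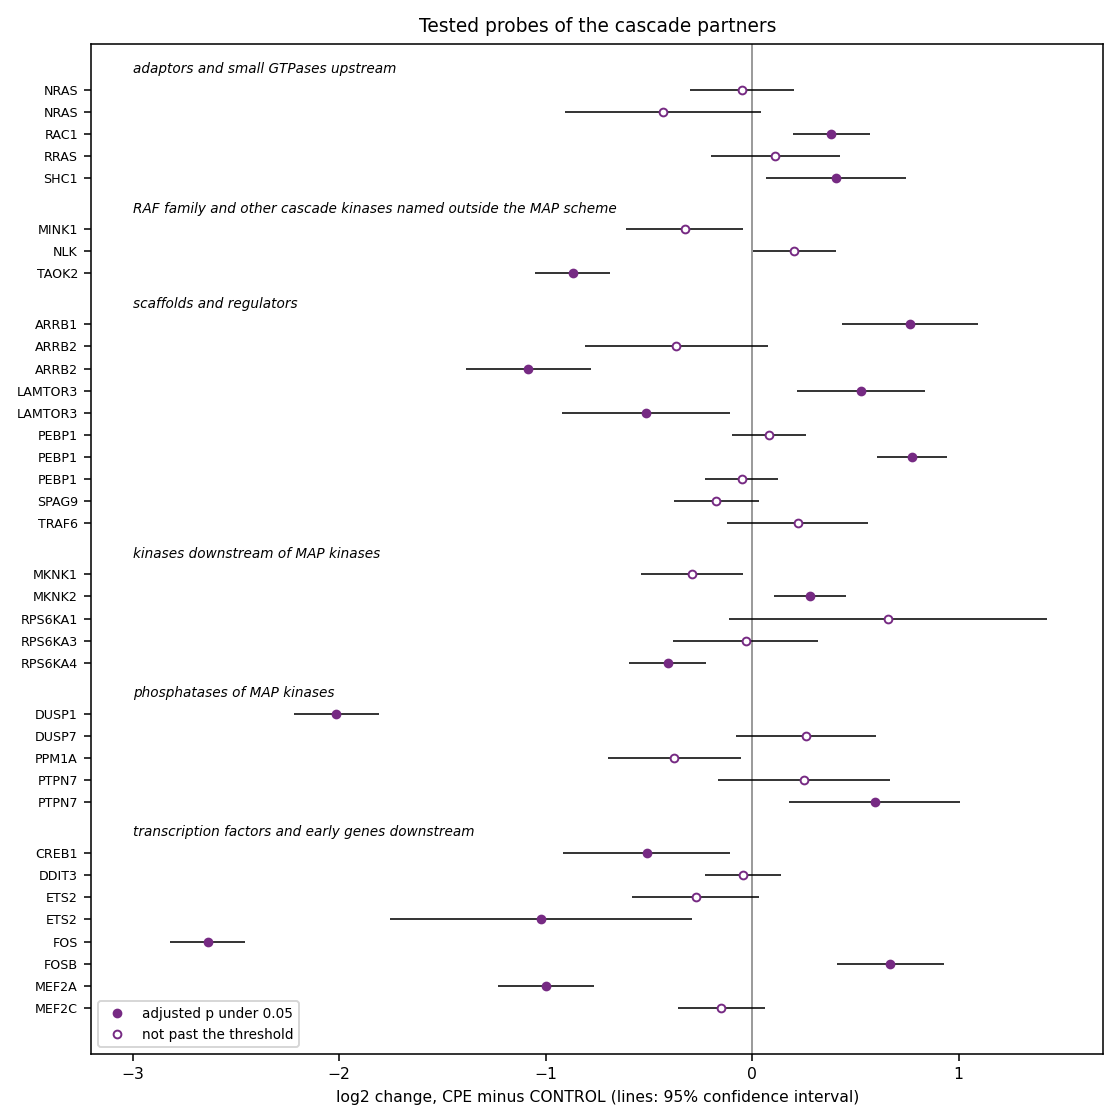
Change of tested partner probes (horizontal axis, log2, CPE minus CONTROL) with its 95% confidence interval, grouped by role in the pathway. FOS at −2.64 and DUSP1 at −2.01 lie farthest left, and filled points mark probes past the threshold.

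Marker genes of blood cell types also differed between the groups. Of 31 marker probes tested, 18 (58.1%) passed, 11 higher and 7 lower. The share over all tested probes was 48.3%, with 22.8% higher and 25.5% lower. Tests in the lit area covered 8 of 9 T cell marker genes, 2 of 6 of NK cells, 3 of 6 of monocytes, 3 of 8 of neutrophils, 3 of 6 of B cells, 1 of 6 of platelets, 1 of 6 of red cells and 3 of 4 of leukocytes in general. Only probes well above background on all 8 arrays were tested, so these counts say nothing of the markers left out. T cell markers were higher at 7 of 11 probes and lower at 0. The surroundings of those 7 probes were at −0.33 (a CD3G probe) to 0.47 (CD4). The summed linear level of T cell markers relative to the scaling percentile was 78.5 to 99.9 in CPE arrays, against 54.5 to 57.7 in CONTROL arrays. CD4 (0.94) was the largest part of that sum in CPE arrays. Its level was 5.61 on CPE array 3, against 4.40 to 4.70 on the other CPE arrays. Every tested probe entered the sum, also those of LCK, none of which passed. NK cell markers (1 higher and 1 lower of 2) summed to 33.6 to 38.4 in CPE, against 16.9 to 19.7 in CONTROL. GNLY carried most of that sum and was higher (1.25), while NKG7 was lower (−0.79). Monocyte markers (2 lower of 4) summed to 6.80 to 9.72 in CPE, against 11.3 to 13.9 in CONTROL. Both lower probes were of CSF1R (−0.74 and −0.32), which carried most of that sum. FCGR3A (0.33) and CD14 (0.053) did not pass and lay above 0. Neutrophil markers, with 3 lower and 1 higher of 4, summed to 104 to 117 in CPE and 100 to 111 in CONTROL. S100A12 (0.24) carried most of that sum, with 91.7 to 108 in CPE and 79.4 to 87.9 in CONTROL, while CSF3R and both CXCR2 probes changed by −0.93, −0.99 and −1.12. B cell markers (1 lower of 4) summed to 34.3 to 41.4 in CPE and 37.4 to 40.7 in CONTROL. The platelet marker PPBP was higher (1.46, with surroundings at 0.81). Its linear level was 1.38 to 1.95 in CPE, against 0.520 to 0.673 in CONTROL. The red cell marker HBB was at 0.28 (adjusted p = 0.141), and general leukocyte markers had 1 higher of 4 probes. In these bulk samples fewer cells of a type and less RNA per cell cannot be told apart. The part of these differences in the kinase values was not tested.

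**Figure D5:**
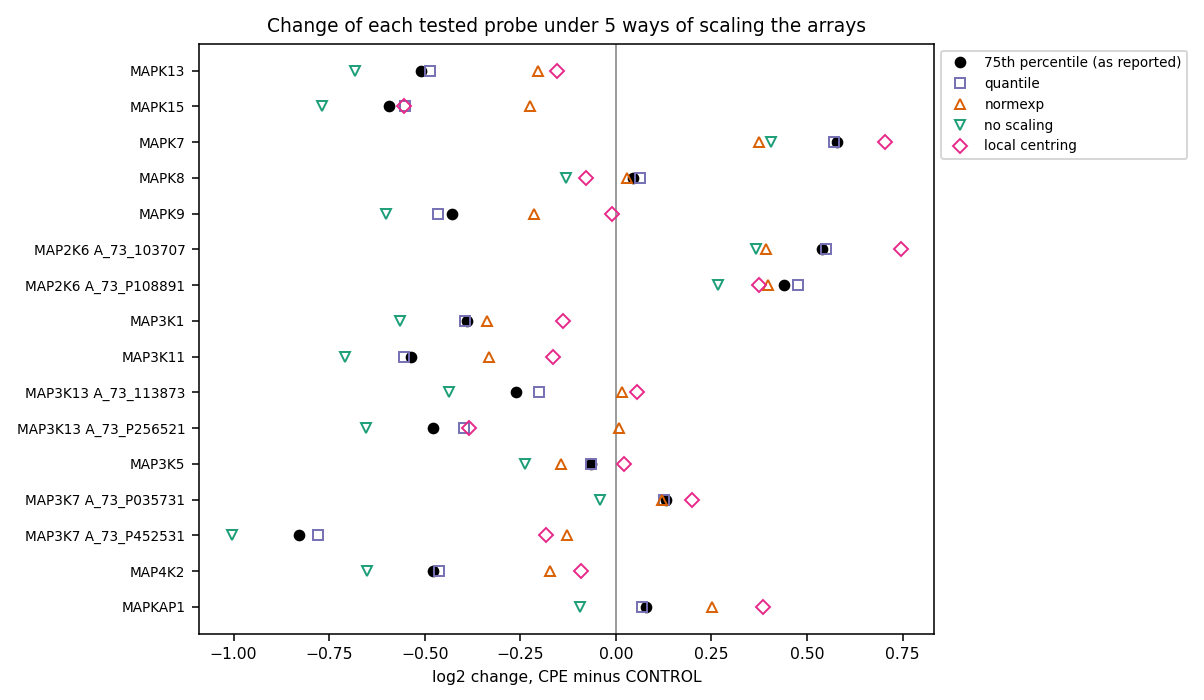
Change of each tested member probe named in the text (horizontal axis, log2, CPE minus CONTROL) under 5 ways of scaling the arrays, 1 symbol each. MAPK8, MAP3K5, MAP3K13, MAP3K7 A_73_P035731 and MAPKAP1 cross 0 under at least 1. The other probes drawn keep their sign under all 5, MAP2K6 and MAPK7 above 0 and the rest, MAPK15 among them, below 0. Over the whole array, which is not drawn, the MAP2K6 probes turned to −0.58 and −0.68, and MAPK7 to −0.54.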

How the data were processed

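Cy3 signal of 8 arrays of bovine whole blood RNA was used, 4 of CPE and 4 of CONTROL, grouped by the labels' titles. Per the submitters' processing notes, the authors read the scans with Agilent Feature Extraction 10.10.1.1, and the deposited files give each spot's intensity. Their processed intensity was background-subtracted and detrended, and not normalised between arrays. The authors' deposited log2 averages per group matched log2 intensities shifted by the 75th percentile and median-centred per probe (median absolute difference 0.0034 in CPE and 0.0022 in CONTROL). Column medians were −0.60 for CPE and 0.46 for CONTROL. No label or header states that scale.

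Each array had 45220 spots. The 1417 control spots and 12 to 73 outlier spots per array were left out, no spot was saturated, and duplicate spots were averaged. A spot was lit when the 90th percentile of raw median intensity (log2) among its 61 closest spots exceeded that array's 90th percentile of such values minus 1.5. Log2 processed intensity minus the 75th percentile of lit spots was fitted with limma 3.58.1 in R 4.3.3 (lmFit and eBayes, two-sided). The fit was tested on simulated data. Symbols came from the averages table; 39 of 45 matched the reference annotation by accession, all with the same symbol. Positions are not printed, since that annotation is of another build. Probe sequences came from the averages table. Tested member probes had a median GC content of 45%, against 43.3% for all tested probes.

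The members and gene lists were chosen with earlier results of these data known. Members were named by tier; a few genes are not reported here, though they enter the counts. Values per array were given for called members and for the 4 with the highest mean signal, a rule of choice and no comparison of levels, and partners past the threshold by list, at most 3 a list. Values of MAPK8, MAPKAP1, MAP4K1, MAP4K3, MAPK8IP1, second probes of MAP3K7 and MAP3K13, LAMTOR3, FOSB and second probes of partners were added after their values were seen. Alternatives were other scalings, normexp (offset 50), other filters, other definitions of the lit area, local centring, a trended robust variance, a replicate block, leaving out each array, and a threshold of 0.01. Reading spots only where lit, 1 probe per gene, and no scaling without CPE array 3 were added after seeing the data. Normexp was run on median spot signals in place of the planned mean signals.

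Groups share replicate numbers 1 to 4. Deviations of same-numbered arrays correlated at −0.12, −0.17, 0.29 and 0.41, so the numbers were not taken to pair arrays. The number of arrays limits the precision.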

Additional observations from a re-analysis of the deposited data

Results flagged for a closer look

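At 16 tested member probes, 32 groups of 4 arrays were checked with Dixon's test for an array far from the other 3. It picked 10 values, whereas chance picks about 1 in 20 groups when groups are independent. These groups were not independent, since they come from the same arrays. The rate over all tested probes was not taken, so the count does not set the members apart from other probes. CPE array 3 accounted for 5 of them, CONTROL array 4 for 4 and CPE array 2 for 1. CPE array 3 and CONTROL array 4 also had the lowest scaling percentile of their groups.

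On CPE array 3, MAPK13 read −1.70, below −1.32 to −1.26 on the other CPE arrays. MAPK9 read 0.020, where the others read 0.80 to 0.87. MAP3K11 read −0.505, against 0.17 to 0.19. MAP4K2 read −1.61, against −1.15 to −1.12. MAPKAP1 read −0.90, against −0.22 to −0.13. All 5 values were low for their group.

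On CONTROL array 4, MAPK7 read −0.44, against 0.11 to 0.17 on the other CONTROL arrays, and MAP3K5 read 0.19, against 0.36 to 0.39. MAPK13 read −0.75, above −0.94 to −0.92, and MAP3K11 read 0.71, above 0.48 to 0.50. The last of the picked values was MAP3K1 on CPE array 2, at −0.49, against −0.14 to −0.10 on the other CPE arrays.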

How the results depend on the processing

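Of 7197 probes in the lit area, 3477 were called; the count was 2246 at an adjusted p under 0.01, 1184 without scaling, 1877 with normexp, 5647 with no filter and 2864 to 4046 without 1 array. Member calls, 9 of 18, were 4, 1 and 3 under the first 3 of these, 14 of 29 over the whole array, and 7 to 11 without 1 array. Without scaling and without CPE array 3 there were 9. Partner calls, 18, were 11, 7 and 9, and 12 to 22 without 1 array. Whole-array member calls, 14 and all lower, were 9 when scaled to bright probes (3 higher, 6 lower) and 1 without scaling, which was higher. They were 4 to 19 without 1 array: 5 without CPE array 2, and 5, 7 and 4 without CONTROL arrays 2, 3 and 4. With the replicate block the counts were 3423, 10, 19 and 18, and among the member probes named here only MAP3K7 A_73_P452531 changed its call. The median change of all probes was 0.12 after local centring, −0.18 without scaling and 0.044 with normexp.

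Signs turned as follows, and the cause was not tested. With normexp MAP3K13 A_73_113873 was 0.016 and MAP3K13 A_73_P256521 0.0093. With local centring MAPK8 was −0.079, MAP3K13 A_73_113873 0.055 and MAP3K5 0.021. Without scaling MAPK8 was −0.13, MAP3K7 A_73_P035731 −0.042 and MAPKAP1 −0.095, and MAPK8 was −0.095 when CPE array 3 was left out as well. Without 1 array MAPK8 ranged from −0.13 to 0.34. Over the whole array, where the median is −1.05, MAPK7 was −0.54, MAPK8 −1.08, MAP2K6 A_73_103707 −0.58, MAP2K6 A_73_P108891 −0.68, MAP3K7 A_73_P035731 −0.99 and MAPKAP1 −1.04; the authors' deposited table gives −0.54, −0.58 and −0.68 for MAPK7 and the MAP2K6 probes. Slide and group cannot be told apart, 1 pool per group may lie behind the arrays, and kinases in dark areas remain unmeasured.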
